A study of Mus musculus with 40 samples.

Results

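Gene expression in the larynx, esophagus and trachea of the mouse embryo was compared between E11.5 and E10.5, where E is the embryonic day. Of the 40 RNA-seq libraries of the series, 12 entered the comparison because their labels gave one of these ages, 6 at E11.5 and 6 at E10.5, with 2 replicates of each organ at each age. All animals were wild type FVB/N mice with no treatment, and the labels give no difference between the groups beside age and organ, while the piece that the labels call primitive laryngopharynx at E10.5 is called larynx here. Per the study's methods, each library pooled tissue from 10 embryos, so every value is an average over a pool of whole pieces that hold epithelium, mesenchyme and neighbouring tissue.

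At these ages the foregut tube is being divided into a ventral airway and a dorsal esophagus, and its surrounding mesenchyme begins to form muscle, cartilage and connective tissue. Embryos of this age also pass through changes that take place in the whole body. The pluripotency-associated RNA-binding protein Lin28 gives way to the let-7 microRNAs, and primitive red cells from the yolk sac exchange one embryonic globin for others.

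Over the 3 organs, 28629 genes were tested and 3241 (11.3%) passed an adjusted p of 0.05 in edgeR's quasi-likelihood test with the organ as a term. Of these 2023 (7.07% of all tested) rose and 1218 (4.25%) fell from E10.5 to E11.5. All changes below are log2 fold changes of E11.5 over E10.5 with their standard error (SE), and levels are normalized counts, which compare a gene between libraries and not one gene with another. The median gene changed by 0.16 on that scale, and by -0.01 when both E11.5 larynx libraries were left out. Lists with many members that fell were those of Lin28 and let-7 genes, of embryonic globin and erythroid genes and of neural progenitor genes, and lists with many members that rose were those of fibrillar matrix, macrophage and muscle genes.

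**Figure D1:**
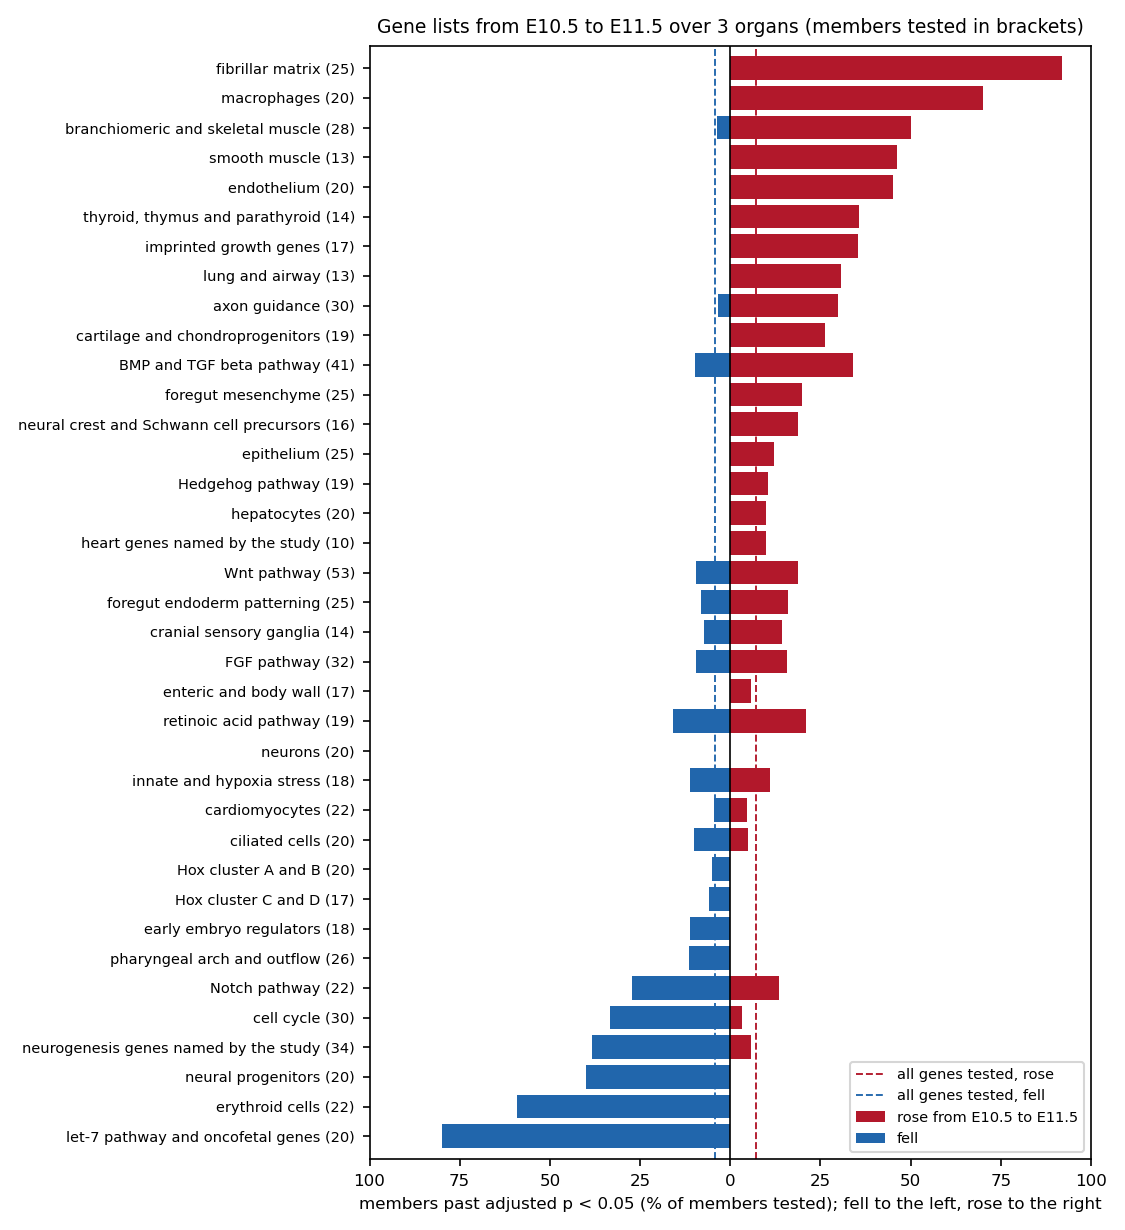
Share of the tested members of each gene list (number in brackets) that rose (right, red) or fell (left, blue) from E10.5 to E11.5 at an adjusted p under 0.05, with dashed lines at the shares over all genes, 7.07% and 4.25%. The fibrillar matrix list reaches furthest to the right with 23 of 25 members, and the let-7 pathway and oncofetal list furthest to the left with 16 of 20.

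Not every library was equal. The totals of estimated counts ran from 3286403 in E11.5 larynx 1 to 21649257 in E11.5 trachea 1. E11.5 larynx 2 had counts for 1108 olfactory receptor genes against 110 to 319 in the other 11 libraries, and 57.91% of its counts were on protein-coding genes. A principal component held E11.5 larynx 2 and E11.5 esophagus 1 apart from the rest, and the replicate correlation over 13085 genes was 0.785 in the E11.5 larynx and 0.873 in the E11.5 esophagus but 0.948 to 0.976 in the other 4 groups. Without both E11.5 larynx libraries, 1568 of 27511 genes (5.7%) passed, 1145 up (4.16%) and 423 down (1.54%), and 1451 of them had also passed with all 12. The labelled tissues were checked against their markers. The epithelial gene Epcam ran from 143.4 to 953.2 and the foregut mesenchyme gene Foxf1 from 78.1 to 1007 normalized counts over the 12 libraries, whereas Nkx2-1, which marks respiratory and thyroid endoderm, was at 0 in both E10.5 esophagus libraries, at 58.3 and 3.81 in the E10.5 larynx, at 10.7 and 8.31 in the E10.5 trachea and at 111 and 108 in the E11.5 trachea. The highest E10.5 library for this gene was thus a larynx and not a trachea. In bulk pieces, fewer cells of a type and less RNA per cell cannot be told apart.

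The let-7 microRNAs share a seed, the bases 2 to 8 that pair with target messages, and Lin28a and Lin28b encode the proteins that block their maturation. The mature sequences below, taken from RefSeq (GRCm38.p6), are shown because the falling genes are read against this shared seed, which is in capitals. The other 4 mature let-7 sequences of the table (let-7c, let-7e, let-7f and let-7i) carried the same 7 bases. The let-7 RNAs themselves were not measured, since these libraries were selected for poly-A messages.
let-7a-5p: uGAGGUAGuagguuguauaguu
let-7b-5p: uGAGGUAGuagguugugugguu
let-7d-5p: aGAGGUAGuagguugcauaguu
let-7g-5p: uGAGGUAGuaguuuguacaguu

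The complement of that seed, CTACCTC, was searched on the transcript strand of the longest annotated 3′ UTR of each tested protein-coding gene (GRCm39, GENCODE vM39). One 29-base window around a site, in capitals, is shown for each of 6 genes whose levels are described next.
Lin28a, chr4:133732494-133732522, minus strand: gcacagcctgttgaaCTACCTCatttttg
Lin28b, chr10:45257112-45257140, minus strand: acccgggcgggaagtCTACCTCatgcaag
Trim71, chr9:114341534-114341562, minus strand: aacattgcctaagtcCTACCTCagcttaa
Igf2bp1, chr11:95850177-95850205, minus strand: cagcagtgctattaaCTACCTCagcccca
Igdcc3, chr9:65092989-65093017, plus strand: tgtgactctcagcacCTACCTCagccgga
Hmga2, chr10:120200123-120200151, minus strand: gccgacattcaatttCTACCTCagcatca

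Of the 20 genes listed as let-7 pathway and oncofetal genes, 16 fell and the other 4 did not pass, with a median change of -1.17. In 15 of the 20, every E11.5 library was below every E10.5 library, which held for 3.14% of all genes tested. Lin28a ran from 240.9 to 387.1 (median 296.7) at E10.5 and from 2.64 to 48.4 (median 12) at E11.5, a change of -4.11 (SE 0.49, adjusted p = 0.000285). Lin28b ran from 832.8 to 1484 (median 1320) at E10.5 and from 154.8 to 269.4 (median 214.0) at E11.5, a change of -2.50 (SE 0.17, adjusted p = 1.03e-05). The 2 ages did not overlap for either gene, and within E11.5 the lowest library of both was esophagus 1 and the highest esophagus 2.

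Trim71, a stem cell ubiquitin ligase and RNA-binding protein, ran from 780.7 to 1088 at E10.5 and from 47.5 to 308.7 at E11.5 (change -2.52, SE 0.39). Igf2bp1, a fetal RNA-binding protein that stabilizes messages, was 2.46-fold lower at E11.5, between 2709 and 3655 against 6768 to 9410. Its relatives Igf2bp3 (-0.82) and Igf2bp2 (-0.48) fell by less, and the immunoglobulin superfamily gene Prtg (-2.37), the AT-rich DNA-binding factor Arid3b (-1.69) and the nuclear receptor Nr6a1 (-1.66) fell with groups apart. Outside the list, Igdcc3 and Fignl2, which were among the 15 largest falls over the organs, fell by 4.41 and 2.68 (adjusted p = 1.01e-06 for both). Igdcc3 dropped from a median of 1530 to a median of 72.9, 21.3-fold, and its 6 libraries at E11.5 lay between 39.2 and 102.2. Both carry several copies of the site, 4 in Igdcc3 and 3 in Fignl2.

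Members of this list did not all move. Hmga2, a chromatin protein that is a textbook let-7 target with 4 sites in its 3′ UTR, ran from 3346 to 6456 at E10.5 and from 2493 to 7097 at E11.5 (change -0.35, adjusted p = 0.390), with E11.5 esophagus 2 the highest of the 12 libraries. Tert (0.00), Gdf6 (0.69) and L1td1 (1.33, adjusted p = 0.0536) did not pass either. Without both E11.5 larynx libraries 11 of the 20 fell, and in the 12 fits that each left out one library 14 to 16 fell. In the organs one by one, 5 fell in the esophagus, 10 in the larynx and 6 in the trachea. Of all genes tested, 0.192%, 0.412% and 0.251% fell in these organs.

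**Figure D2:**
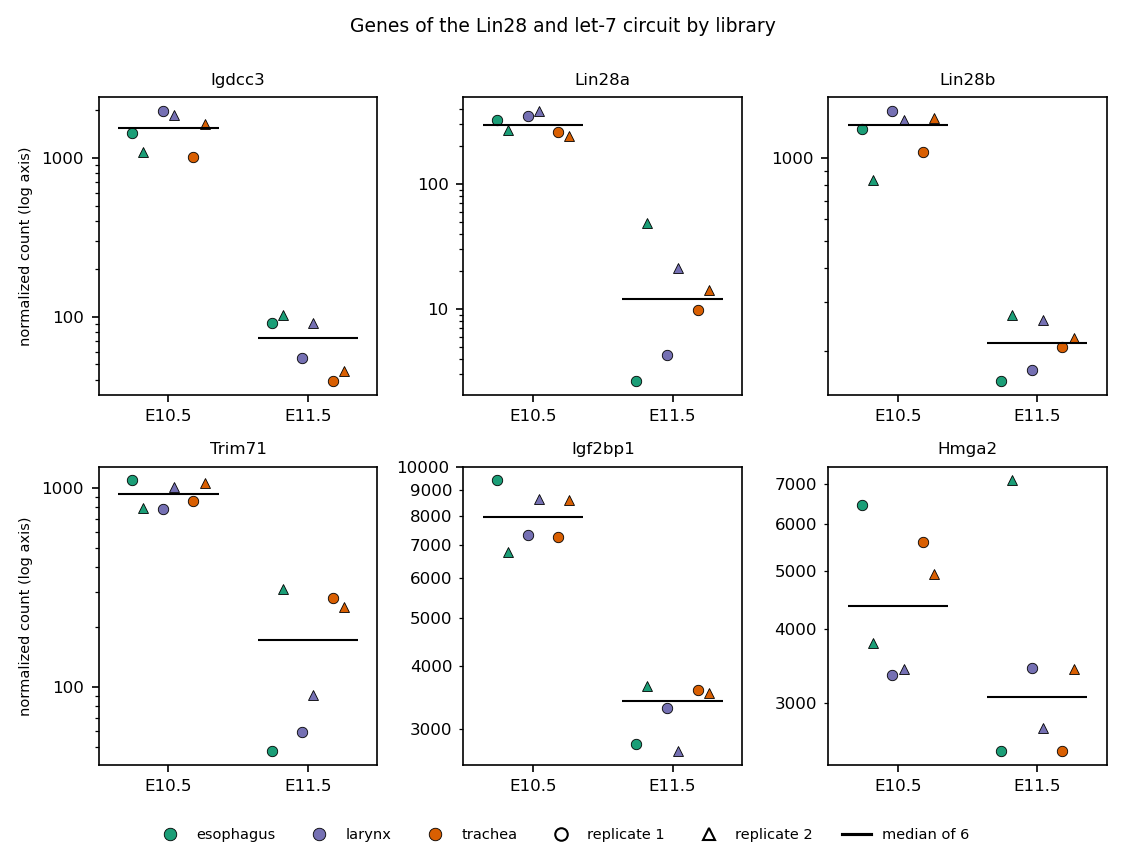
Normalized count (log axis) of 6 genes of the Lin28 and let-7 circuit in each library, coloured by organ, with the median of the 6 libraries of each age as a line. The ages are apart for Igdcc3, Lin28a, Lin28b, Trim71 and Igf2bp1, whereas Hmga2 overlaps, from 2493 to 7097 at E11.5.

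Over all 17930 tested genes with an annotated 3′ UTR, 13.4% held at least 1 copy of CTACCTC. Among the 1147 of them that fell it was 20.0%, among the 1908 that rose 12.9% and among the 14875 that did not pass 12.9%. The share of genes that fell went from 5.91% with no site to 9.18% with 1 site, 12% with at least 2 and 21.6% (11 of 51) with at least 3. The 11 include Fign, Fignl2, Igdcc3, Igf2bp1, Lin28b, Nr6a1 and Trim71. These are list members or were named above for their falls, so the top share counts them again and is no separate evidence. Longer 3′ UTRs hold more of any word, and the median length was 2088 bases in the genes that fell and 1623 in those that did not pass. It was 1537.5 bases in genes with no site and 4515 in those with at least 3. Within each of 5 bands of length the share that fell was higher with a site than without, from 12.5% against 3.31% in UTRs of up to 500 bases (72 genes with a site) to 10.9% against 8.37% in the longest band. The bands compare any site with none, so the shares by number of sites were not matched for length. These shares are a description of 1 word in annotated UTRs and get no test.

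The matrix genes rose almost as a block. Of 25 genes of the fibrillar and elastic matrix, which build collagen fibers, microfibrils and elastin, 23 rose with a median change of 1.80, and in 21 every E11.5 library was above every E10.5 library, which held for 3.42% of all genes. The median was 1.80 in the esophagus, 2.63 in the larynx and 1.80 in the trachea, where 17, 20 and 15 members rose. Of all genes tested, 1.1%, 1.6% and 0.866% rose in these organs. Without both E11.5 larynx libraries 22 of the 25 still rose, with a median of 1.73.

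Lox, the enzyme that cross-links collagen and elastin, ran from 90.7 to 163.8 (median 124.3) at E10.5 and from 1195 to 2223 (median 1670) at E11.5, a 12.7-fold rise (change 3.67, SE 0.18, adjusted p = 7.89e-07). Eln, the elastin precursor, went from 45.1 to 125.5 up to 280.0 to 3370 (change 4.24, SE 0.39), with its 3 highest libraries in the E11.5 trachea and E11.5 esophagus 2. The microfibril partner of elastin Fbln5 rose by 3.24, the small proteoglycan Ogn by 3.59 and the fibril-associated collagen Col14a1 by 3.31. For each of these the ages did not overlap.

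The major fibrillar collagens were already present at E10.5 and rose by less. Col1a1 ran from 644.3 to 2549 at E10.5 and from 2984 to 13990 at E11.5 (change 2.41, SE 0.22), Col3a1 from 7249 to 11600 and from 13980 to 31750 (1.51, SE 0.17). The beaded-filament collagens Col6a1 (3.15), Col6a2 (2.96) and Col6a3 (2.79) rose more, and Col6a6 was among the 15 largest rises of all genes, from a median of 11.8 to 255.0 (change 4.76). The proteoglycan Dcn rose by 2.83. The adhesive matrix protein Tnc (1.80, adjusted p = 0.0541) and Fbln1 (0.40, adjusted p = 0.0879) did not pass, and Postn rose by 1.51 with all libraries but had 0.82 (adjusted p = 0.0773) without the E11.5 larynx.

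**Figure D3:**
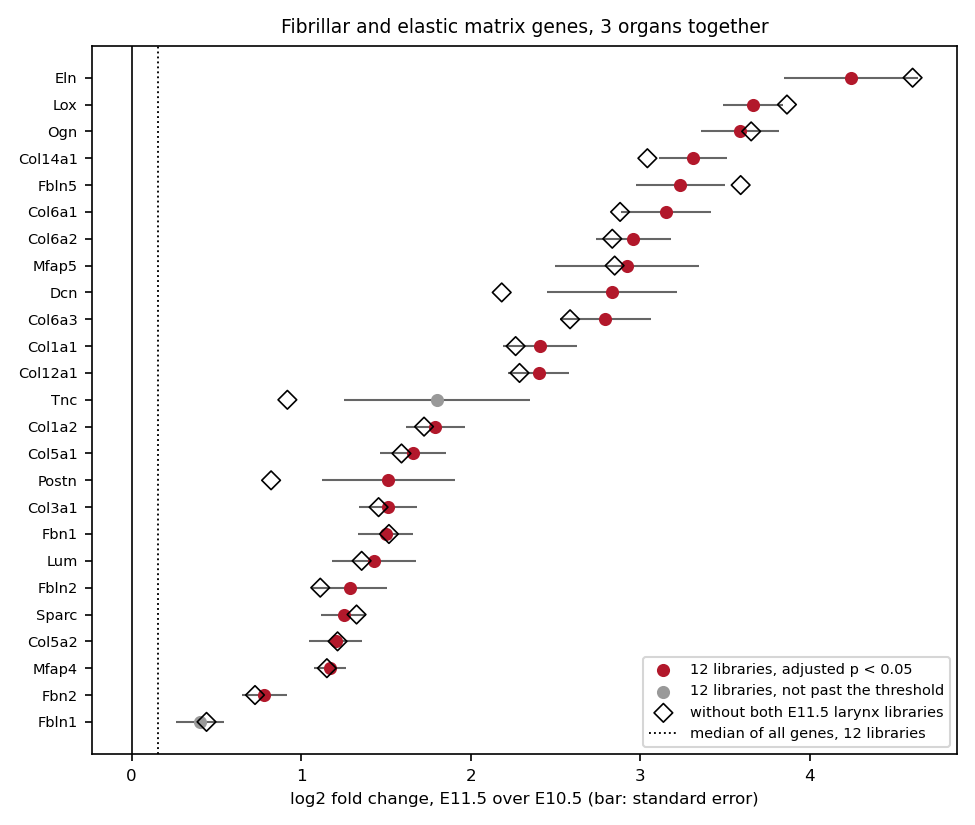
Log2 fold change of E11.5 over E10.5 with its standard error for 25 fibrillar and elastic matrix genes (filled points, red where past the threshold), the value without both E11.5 larynx libraries (open diamonds) and the median of all genes (dotted line, 0.16). All 25 points lie to the right of 0, from 0.40 for Fbln1 to 4.24 for Eln.

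Others of the 15 largest rises have known roles that differ widely. Mgp, a matrix inhibitor of calcification, rose from a median of 3.66 to 168.1 (4.59). Agtr2, an angiotensin receptor abundant in fetal mesenchyme, rose from a median of 33.6 to 620.0 (4.04), and the transcription factor Nfix from 21 to 371.2 (4.43, adjusted p = 1.10e-05) in E11.5 libraries that lay between 326.7 and 919.9. Trpm5, an ion channel known from chemosensory cells, rose from a median of 7.33 to 201.4 (4.73, adjusted p = 1.10e-05), with changes of 4.25, 5.03 and 4.99 in the esophagus, larynx and trachea. Ccl21a, a chemokine that draws lymphoid cells, rose from a median of 5.20 to 234.6 and Abca8a, a lipid transporter, from a median of 0 to 64.4. For all 6 genes the ages did not overlap, as their choice among the largest changes required.

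Globin genes changed their proportions. Hbb-bh1, the early embryonic β-like globin, ran from 10030 to 34400 (median 16460) at E10.5 and from 547.0 to 2829 (median 939.6) at E11.5, a 17.2-fold fall (change -4.10, SE 0.32, adjusted p = 1.94e-05). Hba-x, the embryonic ζ-globin, fell by 1.87 (SE 0.27, adjusted p = 0.000988). Hbb-y, the other embryonic β-like gene, had -0.16 (adjusted p = 0.745) and overlapped between the ages. The adult β genes Hbb-bs and Hbb-bt rose by 2.18 and 2.41, and since they are near-identical copies between which the read assignment had to split, they are summed next.

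As shares of all β-like globin counts of a library, which do not depend on how many red cells a piece held, Hbb-bh1 was 29.5% ± 1.68 (SD, n = 6) at E10.5 and 2.29% ± 0.632 at E11.5. The 6 libraries of E10.5 lay between 28.7% and 32.9% and those of E11.5 between 1.60% and 3.41%, so that organs differed little and ages did not overlap. Hbb-bt and Hbb-bs together went from 2.33% ± 0.402 to 15.4% ± 4.59, with E11.5 trachea 1 and 2 the highest at 24.1% and 17%. Hba-x went from 61.0% ± 3.15 to 23.8% ± 6.62 of the α-like counts, with E11.5 larynx 2 the highest of its age at 36.7%. These shares rest on 8674 to 155611 β-like counts a library.

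**Figure D4:**
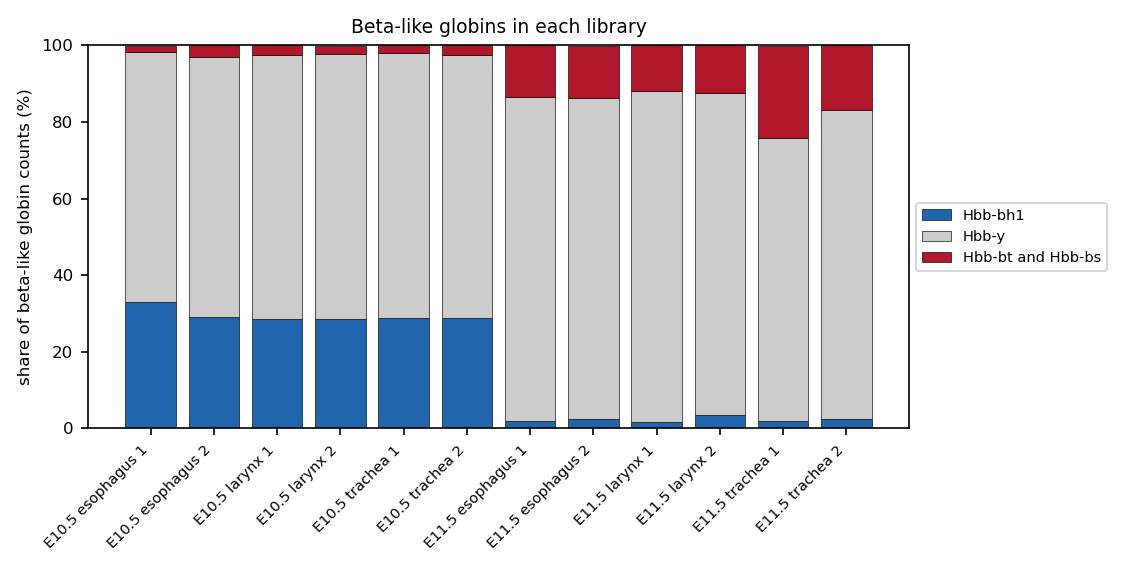
Share of the β-like globin counts taken by Hbb-bh1, Hbb-y and the sum of Hbb-bt and Hbb-bs in each of the 12 libraries (bars add to 100%). Hbb-bh1 takes 28.7% to 32.9% in the 6 libraries of E10.5 and 1.60% to 3.41% in those of E11.5.

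Other red cell genes fell as well, 13 of 22, with a median of -1.09. Hemgn, a nuclear protein of blood progenitors, ran from 199.7 to 760.8 at E10.5 and from 8.50 to 153.9 at E11.5 (change -3.14, SE 0.37), and the membrane skeleton gene Sptb (-1.32), the transferrin receptor Tfrc (-0.94) and the erythroid regulators Gata1 (-2.08) and Klf1 (-2.07) fell. The heme synthesis gene Alas2 had -0.65 (adjusted p = 0.0687) and Bpgm -0.19 (adjusted p = 0.516). The summed level of the list moved with the organ too, highest in E10.5 trachea 1 at 1565 CPM (counts scaled to a common library total) and between 336.6 and 950.3 CPM at E11.5. Without both E11.5 larynx libraries 4 of the 22 fell, and without E10.5 trachea 1, 8.

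Macrophage genes moved the other way, with 14 of 20 up and a median of 1.18. The complement gene C1qa ran from 25.8 to 41.8 (median 34.1) at E10.5 and from 68.5 to 156.2 (median 117.0) at E11.5, a 3.22-fold rise (SE 0.25 on the log2 scale, adjusted p = 0.00112). Adgre1, which encodes F4/80, rose by 1.63 and Csf1r, the receptor that macrophages need to survive, by 1.19 (113.5 to 203.5 against 199.7 to 512.8, overlapping through E11.5 larynx 1). Pf4, a platelet and megakaryocyte gene that some macrophages also express, had -0.61 (adjusted p = 0.272). The E11.5 larynx was lowest within its age in the summed list, 293.9 and 221.9 CPM against 418.0 to 563.4, and without it 13 members rose with a median of 1.36. Without E10.5 esophagus 1 the count was 9.

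Endothelial genes rose in 9 of 20, by less: Erg by 1.23 (95.3 to 181.0 against 260.2 to 344.8), Cdh5 by 0.78 (583.8 to 1094 against 945.1 to 1950) and Pecam1 by 0.84. The vascular receptor Kdr, which marks endothelium from its first appearance, had 0.26 (adjusted p = 0.225) and Plvap 0.09. The median over the list was 0.60, and 5 members rose without E11.5 esophagus 2 and also without E11.5 trachea 1.

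Genes of skeletal muscle rose in 14 of 28. The embryonic myosin heavy chain Myh3 ran from 25.3 to 1515 (median 195.8) at E10.5 and from 1429 to 6479 (median 2258) at E11.5 (change 3.62, SE 0.77, adjusted p = 0.0105). Myog, the regulator that starts terminal myoblast differentiation, ran from 9.90 to 206.5 and from 253.5 to 1032 (3.00, SE 0.65), and Myod1 rose by 2.45. The fusion genes Mymk and Mymx had 4.61 and 3.34, with Mymk at 0 in 4 of the 6 libraries of E10.5 and at 25.7 or more in all of E11.5. The acetylcholine receptor subunits Chrna1 (3.47) and Chrng (2.39) and the giant thin filament protein Neb (3.42) rose with them. Pax3, a gene of muscle progenitors and of the dorsal neural tube, fell by 2.83, and the early regulator Myf5 (0.10) did not pass.

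The muscle rise was not even over the organs. The list's median was 4.74 in the larynx, where 18 members rose against 1.6% of all genes. It was 1.10 in the esophagus, where none passed and 21 of 28 had a positive change, and 0.78 in the trachea, where 1 rose. A test of the difference between organs called none of the 28 members. Members shared with heart muscle were high in the trachea at both ages: Myl4 was 2706 and 4742 in the E10.5 trachea and 5296 and 824.6 in the E11.5 trachea, against 3.3 to 672.2 in the other 8 libraries. The summed cardiomyocyte list moved with it, at 6833 and 12500 CPM in the E10.5 trachea and 8630 and 1531 CPM in the E11.5 trachea, 26.8 and 108.5 in the E10.5 larynx, and 585.9 to 2971 in the other 6, and 1 of its 22 members rose and 1 fell over the organs. In the larynx alone, heart muscle genes moved with the skeletal muscle genes, with 7 of the 22 up and a median of 4.36, whereas in the trachea 3 fell and 1 rose. Of all genes tested, 1.6% rose in the larynx, and 0.251% fell and 0.866% rose in the trachea. The part that heart tissue in these pieces had in the muscle values was not tested. Without both E11.5 larynx libraries 9 members of the skeletal muscle list rose, and its median was 0.61 against 1.67 with all 12. Myh3 then had 2.69 (adjusted p = 0.0627), and Myog and Myod1 did not pass either.

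Smooth muscle genes rose in 6 of 13, with a median of 1.24. Myh11, the smooth muscle myosin heavy chain, was 9.15 to 39.0 in every library of E10.5, 2118 and 2108 in the E11.5 trachea, 175.0 and 1618 in the E11.5 esophagus and 34.0 and 88.3 in the E11.5 larynx (change 4.81, SE 0.64, adjusted p = 0.000584). Actg2, the enteric actin, ran from 5.33 to 43.9 at E10.5 (change 4.34, SE 0.67). At E11.5 it was 945.8 and 1206 in the trachea, 96.7 and 1414 in the esophagus and 21.2 and 48.7 in the larynx. For both genes the ages overlapped through E11.5 larynx 1. Mylk (1.87) and Acta2 (1.85) rose, whereas Tagln (0.45), Cnn1 (0.87) and the coactivator Myocd (1.40, adjusted p = 0.116) did not pass. The list's count of 6 went down to 2 without E10.5 esophagus 2 and to 3 without E10.5 esophagus 1.

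**Figure D5:**
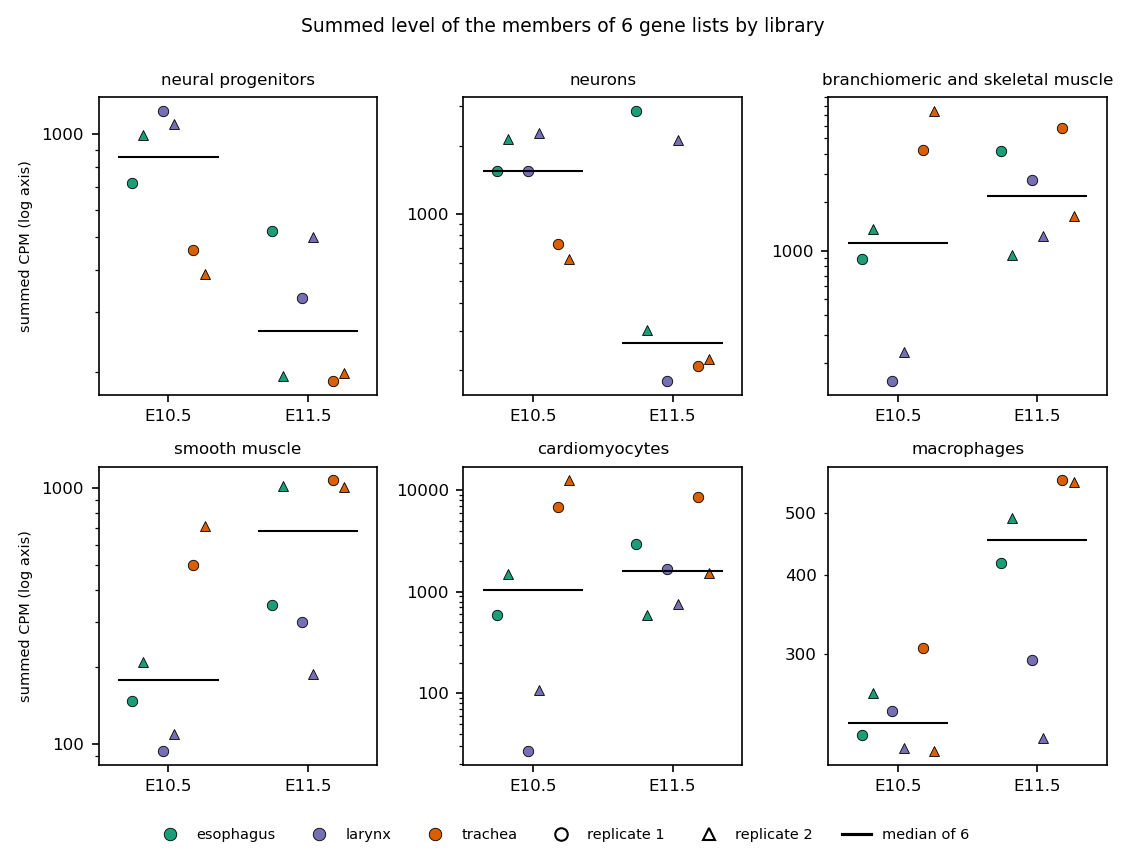
Summed CPM (log axis) of the members of 6 gene lists in each library, coloured by organ, with the median of the 6 libraries of each age as a line. Neuron genes are at 2875 in E11.5 esophagus 1 and 2119 in E11.5 larynx 2 against 178.9 to 302.8 in the other 4 libraries of E11.5, and cardiomyocyte genes are highest in the trachea.

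Genes of the neural tube fell. Of 20 neural progenitor genes 8 fell, with a median of -2 that was -1.36 in the esophagus, -1.25 in the larynx and -3.76 in the trachea. Sox3, a transcription factor of neural progenitors, ran from 28.6 to 177.0 (median 53.4) at E10.5 and from 0 to 10.7 (median 1.49) at E11.5 (change -4.43, SE 0.45, adjusted p = 8.81e-05). The Notch effector Hes5 ran from 105.2 to 735.6 and from 1.40 to 89.8 (-3.76, SE 0.65), and Pax6 from 165.2 to 931.3 and from 3.50 to 219.2 (-3.46), the latter overlapping through E11.5 larynx 2. Sox1 (-3.75), Dbx1 (-3.27), Sox2 (-2.09) and the intermediate filament gene Nes (-0.99) fell too. Sox2 and Nes are also expressed outside neural tissue, Sox2 in the esophageal epithelium.

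The proneural factors were among the largest falls. Neurod4 ran from 126.0 to 507.1 at E10.5 and from 0 to 97.4 at E11.5 (-4.30, SE 0.86), Neurog1 had -4.08 and Atoh1 -4.63. Of the 34 neurogenesis genes that the study itself names from these samples, 13 fell and 2 rose, against 4.25% and 7.07% of all genes. Since the names come from these samples, they are no independent evidence of a direction. With one library left out 10 to 19 fell, and 19 was the count without E11.5 larynx 2. The 2 that rose, Tenm1 (2.15) and Neurod6, were highest in E11.5 esophagus 1 and E11.5 larynx 2, with Neurod6 at 210.2 and 137.0 in those 2 libraries and at 1.40 or below in the other 10.

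Genes of differentiated neurons did not pass: edgeR called 0 of 20 (6 down and 1 up at an unadjusted p under 0.05), and DESeq2 called 1 up and 2 down. Their summed level was 2875 CPM in E11.5 esophagus 1 and 2119 CPM in E11.5 larynx 2, and 178.9 to 302.8 CPM in the other 4 libraries of E11.5, against 626.2 to 2294 CPM at E10.5. Without E11.5 esophagus 1 and both E11.5 larynx libraries, a choice made after these values were seen, the median of the 20 neuron genes was -1.89. That choice removed the 2 libraries of E11.5 with the highest neuron sums, so it favours a fall in advance and is no evidence of one. In the 12 fits that each left out one library, 0 to 6 neuron genes and 8 to 12 progenitor genes fell. The counts were 6 and 12 without E11.5 larynx 2, and 5 and 11 without E11.5 esophagus 1. These are the same 2 libraries with the highest neuron sums, so leaving out either one also favours a fall in advance. These neuron levels moved with the progenitor values by library, and their part in the falls was not tested.

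Cartilage genes rose in 5 of 19, with Matn4 (4.80), Col9a3 (2.62), Acan (3.46), Col9a2 (1.86) and Col11a1 (0.96). E11.5 esophagus 1 was the highest library for each of them, Acan with 1273 there, 259.2 and 258.7 in the E11.5 larynx and 10.3 to 56.0 in the other 3 libraries of E11.5. Sox9, the regulator of chondrocytes, had -0.24 (adjusted p = 0.639). Without both E11.5 larynx libraries 1 of the 19 rose, Matn4, and the other 4 named here did not pass. With E11.5 esophagus 1 left out as well, 3 rose and 6 fell. The count was 9 without E11.5 esophagus 2, and 3 without any one of E10.5 esophagus 1, E10.5 esophagus 2, E10.5 larynx 1 and E10.5 larynx 2.

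Of 41 genes of the BMP and TGFβ families, which signal through paired receptor kinases, 14 rose and 4 fell with a median of 0.48, and 10 rose and 3 fell without both E11.5 larynx libraries. Of the ligands, Inhba, the activin subunit, ran from 14.3 to 97.8 (median 25.8) at E10.5 and from 229.4 to 531.2 (median 299.0) at E11.5, a 9.44-fold rise (SE 0.34 on the log2 scale, adjusted p = 0.000123). Tgfb3 (2.00), Tgfb2 (1.46), Bmp3 (2.56), Gdf10 (2.46), Gdf5 (2.84) and Bmp5 (0.90) rose, Gdf11 fell by 0.81, and Bmp4 (0.38), Bmp7 (-0.21) and Tgfb1 (0.48) did not pass. For Inhba, Tgfb3, Tgfb2, Bmp3, Gdf10 and Gdf5 the ages did not overlap.

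Of the receptors, Tgfbr2 rose by 1.41 (344.2 to 594.4 against 914.6 to 1351) while Acvr2b fell by 1.15 (804.4 to 1135 against 373.9 to 553.2) and Tgfbr1 by 0.48, each with the ages apart. The secreted modulators Bmper (1.95), Chrd (1.25), Fstl1 (1.28) and Fst (0.88) rose. Of the target genes, Msx2 fell by 2.03, with 11.2 and 22.9 in the E11.5 trachea against 61.6 to 196.3 in the other E11.5 libraries, and Id1 (-0.16), Id2 (-0.24), Id3 (0.10), Smad6 (0.23) and Smad7 (0.19) did not pass.

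In the Wnt pathway 10 of 53 genes rose and 5 fell, against 7.07% and 4.25% of all genes. The number that fell was 3 without any one of E10.5 esophagus 2, E10.5 larynx 1, E11.5 trachea 1 and E11.5 trachea 2. Wnt11 ran from 12.1 to 106.9 at E10.5 and from 158.3 to 335.6 at E11.5 (2.50, SE 0.39), the secreted inhibitor Sfrp2 rose by 1.45 and the R-spondin receptor Lgr6 by 2.6, each with the ages apart. Wnt1, a dorsal neural tube ligand, ran from 1.85 to 28.4 at E10.5 and from 0 to 4.57 at E11.5, and the receptors Fzd10 (-1.63) and Fzd3 (-1.11) fell. Axin2, a feedback target of the pathway, had -0.59 (adjusted p = 0.0347) and passed under 12 of the 25 other settings, failing without any single E10.5 library, without both E11.5 larynx libraries and without any one of E11.5 larynx 2, E11.5 trachea 1 and E11.5 trachea 2, while Lef1 (0.01) and Tcf7 (-0.02) did not pass.

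In the FGF pathway 5 of 32 rose and 3 fell, against 7.07% and 4.25% of all genes, and 1 fell without both E11.5 larynx libraries. The mesenchymal ligand Fgf7 ran from 6.10 to 13.0 at E10.5 and from 15.0 to 70.4 at E11.5 (2.27, SE 0.41), and Fgfr4 rose by 2.26 (9.90 to 42.2 against 74.6 to 137.2). Fgf8, a ligand of pharyngeal and neural signalling centres, ran from 6.15 to 40.7 at E10.5 and from 0 to 4.25 at E11.5 (-4.42, adjusted p = 0.00309). The lung and tracheal ligand Fgf10 had 0.65 (adjusted p = 0.0789). Of 22 Notch genes 6 fell and 3 rose: the ligands Dll1 (-1.91) and Dll3 (-2.82), the targets Hes5, Hes6 (-0.75) and Nrarp (-1.53) and the receptor Notch1 (-0.73) fell, and Notch2 (0.56), the vascular ligand Dll4 (0.61) and Dlk1 (1.08) rose. Hes5, Dll3 and Hes6 are neural genes and were measured beside the neuron levels given above.

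In the retinoic acid pathway, 4 of 19 rose and 3 fell, against 7.07% and 4.25% of all genes, and 2 rose without E10.5 larynx 2. The cellular binding protein Crabp2 ran from 1618 to 3063 at E10.5 and from 418.3 to 1614 at E11.5, non-overlapping and 2.72-fold lower (adjusted p = 0.000147), and Crabp1 fell by 1.08 but did not pass without both E11.5 larynx libraries. The synthetic enzymes Aldh1a2 (1.99) and Rdh10 (0.93) and the reductase Dhrs3 (1.19) rose. Aldh1a2 was 36.3 and 60.2 in the E10.5 larynx and 281.5 to 990.5 in the other 4 libraries of E10.5, and without the E11.5 larynx it had 1.20 (adjusted p = 0.0802). The Hedgehog list had 2 of 19 up, near the share of 7.07% over all genes. These were the target genes Foxf1 (1.04, adjusted p = 0.0398) and Hhip (1.07, adjusted p = 0.0210), and Shh (-0.39), Ptch1 (-0.05) and Gli1 (0.47) did not pass. In edgeR's fits with one library left out the count was 0 without E10.5 esophagus 1, E10.5 esophagus 2 or E11.5 trachea 1, 1 without E10.5 larynx 1, E10.5 trachea 1, E10.5 trachea 2, E11.5 larynx 1 or E11.5 trachea 2, and 4 without E11.5 larynx 2 (7 up at an unadjusted p under 0.05 with all 12 libraries, and 4 up in DESeq2). Foxf1 passed under 12 of the 25 other settings, and not without both E11.5 larynx libraries.

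Of 25 foregut endoderm patterning genes 4 rose and 2 fell, against 7.07% and 4.25% of all genes. The median was 0.32, and 2 rose without E10.5 esophagus 2. The number that fell was 1 without any one of 8 libraries (all but E10.5 trachea 2, both of the E11.5 esophagus and E11.5 larynx 2). Of 25 foregut mesenchyme genes 5 rose with a median of 0.70, 22 had a positive change, 15 were up at an unadjusted p under 0.05 and DESeq2 called 13 up. The edgeR count was 3 without any one of E10.5 esophagus 1, E10.5 esophagus 2, E10.5 trachea 2 and E11.5 trachea 1, and 8 without E11.5 larynx 2. Klf4, a regulator of stratified epithelium, ran from 25.3 to 46.2 at E10.5 and from 88.8 to 327.7 at E11.5 (2.23, SE 0.31), and the related Klf5 rose by 1.32. In the mesenchyme, Hic1 ran from 22.1 to 66.5 and from 191.8 to 811.5 (3.67, SE 0.35, adjusted p = 6.28e-05) and Osr1, needed for lung formation, from 61.6 to 192.9 and from 339.4 to 900.7 (2.38, SE 0.28). Tbx4, a regulator of tracheal and lung mesenchyme, was 900.3 and 933.5 in the E11.5 trachea, 135.2 and 100.6 in the E10.5 trachea and 13.2 to 165.7 in the other 8 libraries. Of 25 epithelial genes 3 rose, not far above the share of 7.07% over all genes. They were the keratins Krt17 (3.98), Krt15 (2.83) and Krt5 (2.31), and these were lowest in the trachea within E11.5. Without E10.5 esophagus 1, without E10.5 esophagus 2 or without both E11.5 larynx libraries, 1 of the 25 rose, and without E11.5 esophagus 1, 5.

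Cell cycle genes fell slightly, 10 of 30 against 4.25% of all genes, with a median of -0.52, while the inhibitor Cdkn1c rose by 1.00. Mki67 ran from 12760 to 17310 at E10.5 and from 7402 to 12170 at E11.5 (-0.60, SE 0.14), Top2a had -0.68 and Rrm2 -1.06. For 9 of the 30 every E11.5 library lay below every E10.5 library, which held for 3.14% of all genes tested. The number that fell was 3 without E10.5 esophagus 1, 4 to 6 without any one of 7 others, and 13 without E11.5 esophagus 2. It was 1 (Rrm2) without both E11.5 larynx libraries, where Mki67 had -0.51 (adjusted p = 0.108).

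In the organs one by one, each with 2 libraries per age, 371 genes (1.3%) passed in the esophagus, 577 (2.02%) in the larynx and 320 (1.12%) in the trachea, and more rose than fell in each (316, 459 and 248 up). With TMM normalization 394 of 567 rose in the larynx, 69.5% against 79.5% as given. Of the 30 genes with the largest changes over the organs, 12 passed in each organ on its own, namely Abca8a, Ccl21a, Col6a6, Eln, Mgp, Nfix and Trpm5, which rose, and Fignl2, Hbb-bh1, Igdcc3, Lin28b and Sox3, which fell. In the trachea the largest falls included the heart ventricle gene Myl2 (3264 and 5754 to 39.9 and 24.5), the noncoding RNA Pantr1 and the pharyngeal and neural genes Msx1, Wnt9b and Sox1, and the largest rises included Sftpc, a lung epithelial gene, from 1.53 and 0.923 to 70.0 and 103. The Hox genes of clusters A and B summed to 10.3 and 76 CPM in the E10.5 larynx, 34.99 and 98.04 CPM in the E11.5 larynx and 60.69 to 393.9 CPM in the other 8 libraries. The summed levels thus overlapped between the ages in the larynx, where 1 of the 20 genes passed. Even so, 18 of the 20 had a positive change there, with a median of 4.64, against 0.30 for all genes tested in the larynx. These changes start near 0 and end in the shallow E11.5 larynx 1 and in E11.5 larynx 2 with its many olfactory receptor genes. Those receptor genes themselves had a median change of 1.48 over the organs, and -0.16 without both E11.5 larynx libraries. The part of these libraries in the Hox values was not tested. The median was -0.42 for the esophagus (2 positive) and 0.77 for the trachea (12 positive). Of 17 genes of clusters C and D, 16 had a positive laryngeal change (median 4.74), and 0 rose past the threshold. Their tracheal median was -3.05 with 0 positive, and their esophageal median -0.9 with 5. In the trachea their sums were 107 and 5.6 CPM at E10.5 and 14.4 and 22.2 CPM at E11.5. The tracheal ages thus overlapped, and the negative median rests on the high level of E10.5 trachea 1. E10.5 larynx 1 had the lowest sum of both lists, 10.3 and 0.72 CPM.

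A difference between organs in the change with age was called for 4 genes (0.014%). Of the 28629 tested, 1413 had an unadjusted p under 0.05, no more than the share of 0.05 that chance alone gives. Pou3f3, a transcription factor of neural tube and other tissues, fell from 494.2 and 507.6 to 6.30 and 11.8 in the trachea (-5.79) and had -1.07 in the esophagus and -0.76 in the larynx. Mab21l2, a gene of pharyngeal and body wall mesenchyme, fell from 902.1 and 791.9 to 83.9 and 108.1 in the trachea (-3.14) and had 0.56 and 0.91 in the esophagus and larynx. Irx4, known from the ventricle of the heart, fell from 73.3 and 121.8 to 2.10 and 3.16 in the trachea (-5.16). Aldh1a3, a retinoic acid synthesis enzyme, rose in the esophagus from 11.4 and 15.4 to 177.6 and 165.7 (3.66) and in the trachea by 2.02, and had -0.78 in the larynx, where it was already at 346.4 and 248.4 at E10.5.

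Each of the 4 had an adjusted p of 0.0274 in edgeR's test of the organ by age terms. In the trachea, where 0.251% of all genes fell, the falls of Pou3f3, Mab21l2 and Irx4 stood beside those of 5 of 26 pharyngeal arch and outflow genes. The list median was -1.96 there against 0.01 in the esophagus and 0.34 in the larynx. With E11.5 larynx 1 left out, 453 genes differed between organs, and the number was 0 with any one of E10.5 esophagus 1 or 2, E10.5 larynx 1 or 2, E10.5 trachea 1 and E11.5 trachea 1 or 2 left out (edgeR, with 776 to 1272 genes at an unadjusted p under 0.05).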

How the data were processed

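Whole pieces of the larynx, trachea and esophagus of wild type FVB/N embryos were sequenced by the authors as poly-A selected RNA (RNeasy extraction, TruSeq libraries) on the HiSeq 2000 or NovaSeq6000; the machine used for each library was not stated. The submitters' processing notes name FastQC 011.5, Bowtie2 2.4.2, RSEM 1.3.3 and GRCm39. The deposited values used are the expected counts of RSEM per gene, estimates that need not be whole, and they were rounded to whole numbers. The study's methods call the replicates biological, and the sources used here do not say whether the pools came from separate litters. Each table held 53647 gene identifiers, of which 52610 were matched to GENCODE vM39 for names.

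Counts were scaled by median ratios, and a gene was tested if 2 or more of the 12 libraries reached a normalized count of 1. Age was tested with edgeR 4.0.16 (glmQLFit and glmQLFTest, R 4.3.3) with organ as a term, 8 residual degrees of freedom and a dispersion of 0.136, and organs one by one and their difference in a model of 6 group means (6 residual degrees of freedom, dispersion 0.115). P-values were Benjamini-Hochberg adjusted over all genes tested, with a threshold of 0.05, and the scripts were tested on simulated data. Alternatives used limma 3.58.1, DESeq2 1.42.0, TMM, other filters, the study's threshold of 0.01, left-out libraries and replicate blocks. Named genes were list members, the 15 largest rises and falls with a mean count of at least 50 and no overlap between ages, the 10 largest per organ and direction, and genes that differed between organs. The comparison, its members and the gene lists were chosen with earlier results of these data known. Site counts in 3′ UTRs and globin shares are descriptions without a test. Some list members that were tested are not reported here by name.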

Additional observations from a re-analysis of the deposited data

Results flagged for a closer look

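In 94 groups of 6 libraries of one age, 11 had a library apart from the other 5 by Dixon's criterion. For unrelated groups of like libraries chance gives about 1 in 20 (4.7). Each group here mixes 3 organs and some values share genes, so 4.7 is only a rough reference. E11.5 larynx 2 had counts for 1108 olfactory receptor genes (110 to 200 in the others of its age), the lowest protein-coding share at 57.91% (74.01% to 78.7%) and the lowest summed Hedgehog pathway level at 707.6 CPM (1056 to 1234). E11.5 trachea 2 had the highest globin share at 1.227% and the highest embryonic globins at 7509 CPM, and E10.5 trachea 1 the highest erythroid level at 1565 CPM. E11.5 trachea 1 was highest in cardiomyocyte genes at 8630 CPM and in the heart genes that the study names at 728.3 CPM, and E11.5 esophagus 1 in cartilage genes at 2316 CPM. E10.5 larynx 1 had the highest share of the signal recognition particle RNA 7SL at 4.023%, and E10.5 larynx 2 the highest level of ciliated cell genes at 210.6 CPM.

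The change with age differed between the organs for Pou3f3, Mab21l2, Irx4 and Aldh1a3, each with an adjusted p of 0.0274 in edgeR's test of the organ by age terms.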

How the results depend on the processing

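The 3241 genes changed over the organs became 5391 with limma voom and sample weights, 1568 without both E11.5 larynx libraries, 1430 with the esophagus and trachea alone, 1234 with the threshold at 0.01, and 2036 (without E10.5 esophagus 1) to 3119 with one library left out. Other settings gave 2546 to 4845, apart from the replicate block of age and number, which gave 5308. Same-numbered libraries of one organ did not deviate together (r = -0.107, -0.017 and -0.165), and over organs of one age r went from -0.477 to 0.281, so the numbers share no common deviation. The replicate block as a term gave 2546 over the organs, 203 in the esophagus, 398 in the larynx, 240 in the trachea and 2 between organs, and the replicate block of age and number (correlation -0.113) gave 5308. With one library left out, the count went from 11 (without E10.5 esophagus 1) to 988 (without E11.5 esophagus 2) in the esophagus, 42 (without E10.5 larynx 1) to 1855 (without E11.5 larynx 1) in the larynx, 43 (without E10.5 trachea 2) to 712 (without E11.5 esophagus 1) in the trachea, and 0 to 453 (without E11.5 larynx 1) between organs. In these fits an organ can be left with 1 library at an age, which is then assumed to vary like the other groups. The difference between organs called 0 genes with the esophagus and trachea alone (edgeR, 1255 of 27174 at an unadjusted p under 0.05, no more than chance alone gives). Over all 40 libraries it called 4 genes, none of them shared with the 4 reported. The causes were not tested. Of 270 named genes past the threshold, 137 passed under all 25 settings and none changed sign past the threshold. Depth was lowest in E11.5 larynx 1, where a gene at a few counts cannot be told from one at 0.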

Other observations

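Imprinted growth genes rose in 6 of 17, namely Igf2 (0.93), Dlk1 (1.08), Meg3 (0.99), Plagl1 (0.90), Cdkn1c (1.00) and Gnas (0.36, passing under 9 of the 25 other settings), and none fell (edgeR, adjusted p under the threshold, with 2 down at an unadjusted p under 0.05 and 1 in DESeq2). The count was 3 without both E11.5 larynx libraries, 3 without any one of E10.5 esophagus 1, E10.5 larynx 1 and E10.5 larynx 2, and 1 in the fit over all 40 libraries. Rtl3, a retrotransposon-derived gene, was among the 15 largest rises over the organs, from 18.7 to 73.8 normalized counts at E10.5 up to 379.2 to 1891 at E11.5. Of 14 thyroid, thymus and parathyroid genes 5 rose (2 of 13 without both E11.5 larynx libraries, 2 over all 40 libraries, and 3 without any one library other than E10.5 esophagus 1, E11.5 esophagus 2 and E11.5 larynx 1), and the summed list was 12.6 to 24.4 CPM at E10.5 and 20.2 to 58.3 CPM at E11.5.

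Hoxd13, a gene of the most posterior body, had 142.4, 97.3 and 153.5 normalized counts in E10.5 esophagus 1 and 2 and E10.5 trachea 1, and 0 to 3.95 in the other 9 libraries. Hoxa13 had 62.4, 63.2 and 91.7 in the same 3 libraries and at most 9.13 in the others.

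Although each library pooled 10 embryos, Xist, which is expressed from the inactive X of female cells, had 0.572 CPM in E10.5 larynx 1, 14.5 in E11.5 esophagus 2 and 21.3 in E10.5 esophagus 2, against 319.6 to 2194 CPM in the other 9 libraries. Y-linked genes summed to 2.25 CPM in E10.5 esophagus 1 and to 78.4 to 275.3 CPM in the other 11.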
